A study of Homo sapiens with 6 samples.

Results

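The cytosolic HSP90 chaperones and the cochaperones that work with them were followed in LNCaP cells after a short exposure to gedunin. They were taken as 10 named genes, HSP90AA1, HSP90AB1, AHSA1, CHORDC1, FKBP4, STIP1, PTGES3, CDC37, PPID and CACYBP, and every probe set annotated to 1 of them alone was used. That gave 19 probe sets for 9 of the genes, out of 22215 probe sets and 12165 genes in the whole table. No probe set was annotated to AHSA1 alone in the annotation used, and AHSA1 was not analysed here. LNCaP is an androgen-responsive line from a human prostate cancer, and gedunin is a plant limonoid, known from neem. Cells grown in RPMI with fetal bovine serum received 20 µM gedunin (3 arrays) or DMSO, the solvent (3 arrays, of which DMSO 1 and DMSO 2 entered the comparison), and RNA was taken after 6 h. The arrays of a group are numbered as biological replicates, and total RNA of each was hybridised to an Affymetrix array. With so few arrays precision is limited, and a p-value reflects only scatter among these arrays. In the moderated test used below, limma, the scatter of each probe set is pooled with that of all probe sets. In earlier work known for this compound, its effects were set beside those of drugs that inhibit HSP90, which is why the HSP90 machinery is of interest.

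HSP90 is an ATP-driven dimeric chaperone that completes the folding and activation of client proteins, among them steroid receptors and many kinases. Clients reach it from HSP70 through the adaptor STIP1 (HOP), kinases are brought by CDC37, the ATPase is stimulated by AHSA1, and the closed state is held by PTGES3 (p23). The immunophilins FKBP4 (FKBP52) and PPID (cyclophilin 40) sit on mature receptor complexes, including that of the androgen receptor. HSP90 also restrains the heat shock factor HSF1, whose binding sites, the heat shock elements, are inverted repeats of nGAAn units.

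The array labelled DMSO 3 stood apart from the other 5 before any comparison and is given separately. Summed over 9 measured luminal prostate markers, including KLK3 and FOLH1, the intensity lay between 14235 and 14833 on the gedunin arrays and was 15352 and 15750 on DMSO 1 and 2, against 238 on the array labelled DMSO 3. Summed over 8 leukocyte markers, including CD74 and PTPRC, it lay between 163 and 167 on the gedunin arrays and was 166 and 161 on DMSO 1 and 2, against 13955 on that array. On the array labelled DMSO 3, 6 of the 9 luminal markers were at least 8-fold below, and 6 of the 8 leukocyte markers at least 8-fold above, the mean of the other 5 arrays. All tests below therefore set 3 gedunin arrays against DMSO 1 and 2 unless all 6 arrays are named.

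The promoter windows of the members, RefSeq sequence of build GRCh38.p14 from 250 bases before to 50 bases after each annotated transcription start, were searched for heat shock element letters because the members moved together, as given further on. In all, 9 of the 10 genes, those other than FKBP4, had an entry, with 15 windows, since some genes have several starts. The letters searched were the 2-unit forms GAANNTTC and TTCNNGAA, each of which is its own reverse complement, and the 3-unit form in which these share their middle unit, in either order, so that both strands are covered. A 3-unit match thus contains both 2-unit forms, and these matches overlap. HSP90AA1, HSP90AB1 and CHORDC1 held a 3-unit match, as did 0.608% of the 27305 genes in the table and 0.49% of its 35116 windows. The 2-unit forms were common, at 8.21% of genes for GAANNTTC and 9.46% for TTCNNGAA, and among the members they were found in the same 3 genes and, for TTCNNGAA alone, in STIP1. STIP1, PTGES3, PPID and CACYBP, which also rose, held no 3-unit match, and whether match and rise go together was not tested. The 180 bases before the start are shown for HSP90AA1, HSP90AB1 and CHORDC1, with 3-unit matches in capitals. For comparison, those of CACYBP are shown, and those of CDC37, which was not called and held no such match either. Each runs 5′ to 3′ on the strand of the gene.
HSP90AA1, chr14:102087045-102087224, minus strand: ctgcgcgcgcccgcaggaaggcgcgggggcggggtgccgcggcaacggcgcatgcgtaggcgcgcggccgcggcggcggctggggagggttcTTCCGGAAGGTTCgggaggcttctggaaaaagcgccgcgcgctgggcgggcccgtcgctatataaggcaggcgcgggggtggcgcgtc
HSP90AB1, chr6:44247763-44247942, plus strand: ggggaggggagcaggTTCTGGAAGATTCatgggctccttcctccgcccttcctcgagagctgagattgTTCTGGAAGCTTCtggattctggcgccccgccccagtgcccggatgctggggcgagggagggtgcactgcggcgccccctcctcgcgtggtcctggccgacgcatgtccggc
CHORDC1, chr11:90223050-90223229, minus strand: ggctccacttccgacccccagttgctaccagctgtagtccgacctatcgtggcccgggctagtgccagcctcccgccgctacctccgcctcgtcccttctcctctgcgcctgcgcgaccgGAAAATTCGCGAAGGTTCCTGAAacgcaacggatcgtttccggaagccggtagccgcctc
CDC37, chr19:10403543-10403722, minus strand: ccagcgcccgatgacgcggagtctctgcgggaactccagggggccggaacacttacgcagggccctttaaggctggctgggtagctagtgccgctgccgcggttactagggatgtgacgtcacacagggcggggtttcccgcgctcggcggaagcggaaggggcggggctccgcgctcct
CACYBP, chr1:174999255-174999434, plus strand: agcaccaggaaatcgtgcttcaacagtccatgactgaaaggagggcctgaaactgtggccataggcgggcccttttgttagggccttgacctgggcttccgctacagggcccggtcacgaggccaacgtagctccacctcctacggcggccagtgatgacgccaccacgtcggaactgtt

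In HSP90AA1 the match covered positions -88 to -76 before the start at chr14:102087044, which is not the gene's outermost annotated start, and the window at the outermost start held none. In HSP90AB1 there were 2 matches, at -165 to -153 and at -112 to -100, before the last of its 3 annotated starts, and none in the other windows. CHORDC1 held the densest run, 3 overlapping 3-unit matches between -60 and -38. A match of letters is a description of the sequence, and no match says only that these letters are not in the window.

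**Figure D1:**
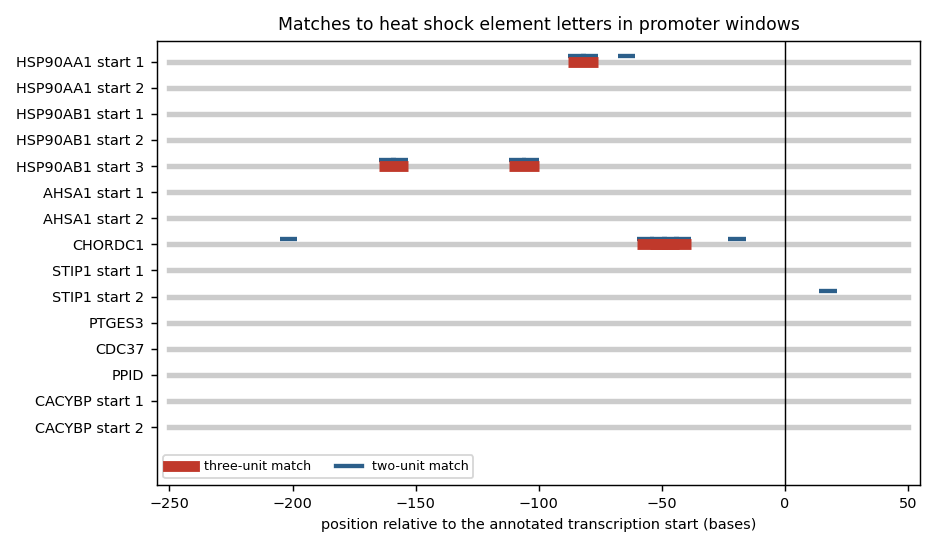
Positions of matches to the 3-unit (red) and 2-unit (blue) heat shock element letters in 15 promoter windows of 9 member genes, with the horizontal axis in bases relative to the annotated start. Starts of a gene are numbered along the chromosome. The 3-unit matches lie in 1 window each of HSP90AA1, HSP90AB1 and CHORDC1.

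Gedunin raised the mRNA of nearly every measured member. Of the 19 probe sets, 18 were higher with gedunin and 0 lower at an adjusted p under 0.05 in limma's moderated test with Benjamini-Hochberg adjustment over the whole table, where 7.37% of all probe sets were higher and 7.91% lower. By gene, taking the probe set with the highest mean as its representative, 8 of 9 rose and 0 fell (8.24% of all genes rose and 9.36% fell), and the gene not called was CDC37. Rises of at least 2-fold were seen for 6 of the 9 genes, against 1.84% of all genes, and on 13 of the 19 probe sets, against 1.56% of all probe sets. The median log2 fold change, gedunin over DMSO, was 1.11 over the 9 genes and -0.017 over all genes. On 18 probe sets all 3 gedunin arrays lay above both DMSO arrays, as on 19.3% of all probe sets.

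**Figure D2:**
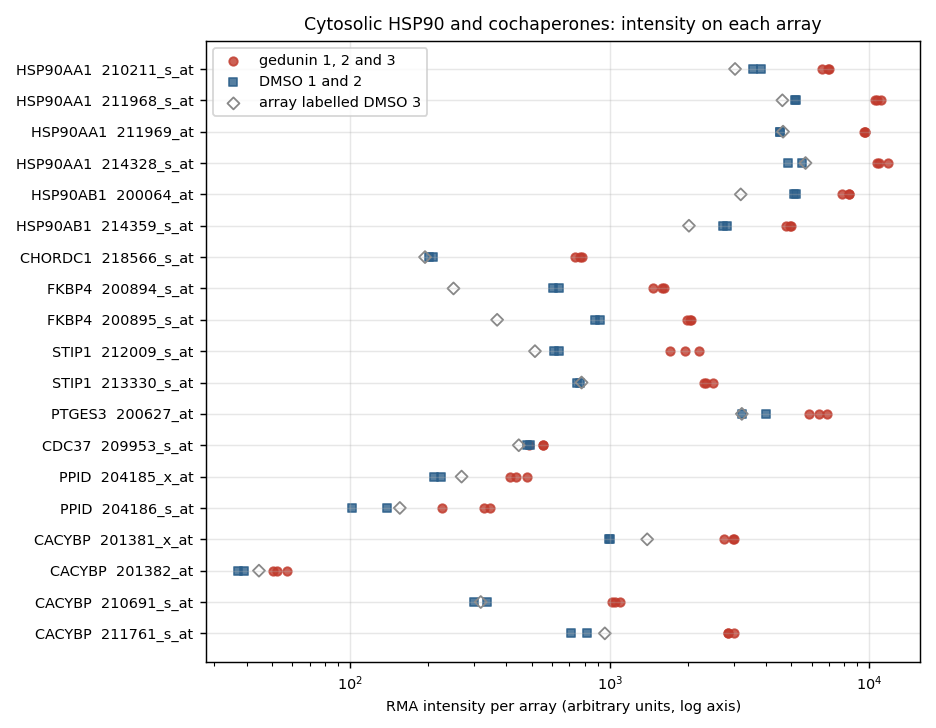
RMA intensity (log axis, arbitrary units) of the 19 member probe sets on each array, with gedunin 1 to 3 as red circles, DMSO 1 and 2 as blue squares and the array labelled DMSO 3 as open diamonds. On 18 rows the gedunin points lie above both DMSO squares, and on the row of CDC37 they overlap.

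HSP90AA1, the stress-inducible cytosolic HSP90, was read by 4 probe sets, and all 4 rose. On the brightest, 214328_s_at, it read 11791, 10938 and 10703 on the gedunin arrays, against 4850 and 5514 on DMSO 1 and 2. The arrays of the groups did not overlap. The means were 11144 ± 572 with gedunin (SD, n = 3) and 5182 ± 470 with DMSO (SD, n = 2), a log2 fold change of 1.11 ± 0.10 (moderated standard error; limma adjusted p = 4.54e-05), or 2.15-fold with a 95% interval of 1.85 to 2.50. The other probe sets of HSP90AA1 gave 0.89 ± 0.09, 1.05 ± 0.09 and 1.09 ± 0.08 on the log2 scale, so the estimate for this gene spanned 1.85-fold to 2.15-fold. Among these, 211969_at had the tightest arrays, with 9603, 9659 and 9569 on gedunin against 4541 and 4518 on DMSO.

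HSP90AB1, the constitutive cytosolic HSP90, rose on both of its probe sets and by less. The brighter one, 200064_at, read 8358, 8341 and 7814 on the gedunin arrays, against 5231 and 5109 on DMSO 1 and 2. Its log2 fold change was 0.66 ± 0.09 (limma adjusted p = 6.76e-04), or 1.58-fold with a 95% interval of 1.38 to 1.81. The second, 214359_s_at, read 4779, 4952 and 4996 with gedunin against 2733 and 2824 with DMSO, a log2 fold change of 0.82 ± 0.08 (limma adjusted p = 1.41e-04). No gedunin array overlapped a DMSO array on either.

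The representative probe sets of the pair were compared within each array. The log2 difference HSP90AA1 minus HSP90AB1 was 0.50, 0.39 and 0.45 on the gedunin arrays and -0.11 and 0.11 on DMSO 1 and 2. The change of HSP90AA1 thus exceeded that of HSP90AB1 by 0.45 on the log2 scale, with a two-sided exact permutation p of 0.2, which is the smallest p that 3 against 2 arrays allow. With the mean of all probe sets of each gene the excess was 0.29, and with all 6 arrays it was 0.17, where the array labelled DMSO 3 alone had a difference of 0.83. The differences of the gedunin arrays lay above both of those of DMSO 1 and 2, with SDs of 0.053 (n = 3) and 0.15 (n = 2), and the exact test has too few arrays to reach a p of 0.05.

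Outside the cytosol, the HSP90 family members were not called. HSP90B1, the endoplasmic reticulum paralog GRP94, had a log2 fold change of 0.015 ± 0.09 (limma adjusted p = 0.940), with a mean intensity of 1916 with gedunin and 1893 with DMSO. TRAP1, the mitochondrial paralog, had 0.050 ± 0.10 (limma adjusted p = 0.814), with 735 with gedunin and 713 with DMSO. The difference between these paralogs and the cytosolic pair was not itself tested.

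CHORDC1 (morgana), a CHORD-domain cochaperone that binds HSP90, had the largest change among the representative probe sets. It read 737, 784 and 770 on the gedunin arrays, against 202 and 209 on DMSO 1 and 2. Its log2 fold change was 1.89 ± 0.09 (limma adjusted p = 4.74e-07), or 3.72-fold with a 95% interval of 3.25 to 4.25. The gap between the groups was far wider than the spread within them, and CHORDC1 ranked 64th from the top of 12165 genes by log2 fold change.

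STIP1, the adaptor that links HSP70 to HSP90, rose on both probe sets by nearly the same amount. On 213330_s_at it read 2348, 2494 and 2307 with gedunin against 767 and 748 with DMSO, a log2 fold change of 1.65 ± 0.09 (limma adjusted p = 1.26e-06), or 3.14-fold with a 95% interval of 2.75 to 3.60. On 212009_s_at it read 1957, 2202 and 1714 with gedunin against 641 and 612 with DMSO, and the log2 fold change was 1.64 ± 0.11. The groups were widely separated on both.

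CACYBP, the calcyclin-binding protein, which resembles SGT1 and also bridges SIAH ubiquitin ligases to their targets, was read by 4 probe sets that rose by unequal amounts. The brightest, 201381_x_at, read 2762, 3008 and 2992 with gedunin against 998 and 1006 with DMSO, a log2 fold change of 1.54 ± 0.09 (limma adjusted p = 2.26e-06). The probe set 211761_s_at read 3007, 2860 and 2861 with gedunin against 712 and 820 with DMSO, a log2 fold change of 1.93 ± 0.09, or 3.81-fold. On 210691_s_at it was 1.73 ± 0.09. The remaining one, 201382_at, was dim, with 50.4, 52.5 and 57.3 on the gedunin arrays against 38.9 and 37.2 on DMSO, near the array medians of 31.1 to 31.8, where RMA compresses folds. Its log2 fold change was 0.49 ± 0.09 (limma adjusted p = 0.00590), and it was no longer called without DMSO 2 (adjusted p = 0.0650).

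The immunophilin cochaperones rose as well. FKBP4, which joins steroid receptor complexes by binding HSP90 through its TPR domain, read 2039, 1984 and 2053 with gedunin on 200895_s_at, against 878 and 921 with DMSO. The groups did not overlap, and the log2 fold change was 1.17 ± 0.09 (limma adjusted p = 1.31e-05), or 2.25-fold with a 95% interval of 1.97 to 2.57. Its second probe set, 200894_s_at, gave 1.33 ± 0.09, with 1594, 1613 and 1472 on gedunin against 637 and 602 on DMSO. PPID, the cyclophilin of these complexes, read 413, 480 and 436 with gedunin against 225 and 211 with DMSO on 204185_x_at. That was a log2 fold change of 1.02 ± 0.10 (limma adjusted p = 7.74e-05), or 2.03-fold with a 95% interval of 1.75 to 2.36. The other probe set of PPID, 204186_s_at, was the most scattered of all member probe sets, at 329, 345 and 226 with gedunin against 102 and 138 with DMSO. It still did not overlap between groups, and its log2 fold change was 1.31 ± 0.19 (limma adjusted p = 0.00109).

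PTGES3, the p23 cochaperone, read 6863, 6414 and 5863 on the gedunin arrays, against 3241 and 3984 on DMSO 1 and 2. The groups did not overlap, but DMSO 1 and 2 differed more here than for most members. The log2 fold change was 0.83 ± 0.11 (limma adjusted p = 9.05e-04), or 1.77-fold with a 95% interval of 1.49 to 2.11.

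CDC37, the adaptor for client kinases, was the exception. It read 487, 556 and 553 on the gedunin arrays, against 494 and 480 on DMSO 1 and 2. The lowest gedunin array lay between the DMSO arrays. Its log2 fold change was 0.12 ± 0.09 (limma adjusted p = 0.465), 1.09-fold with a 95% interval of 0.941 to 1.26, and turned to -0.045 when arrays were centred on GAPDH and ACTB, a scaling that lowers every log2 fold change by the same amount. The interval leaves out a rise as large as that of HSP90AB1, whose interval began at 1.38-fold, although the difference between these genes was not tested.

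**Figure D3:**
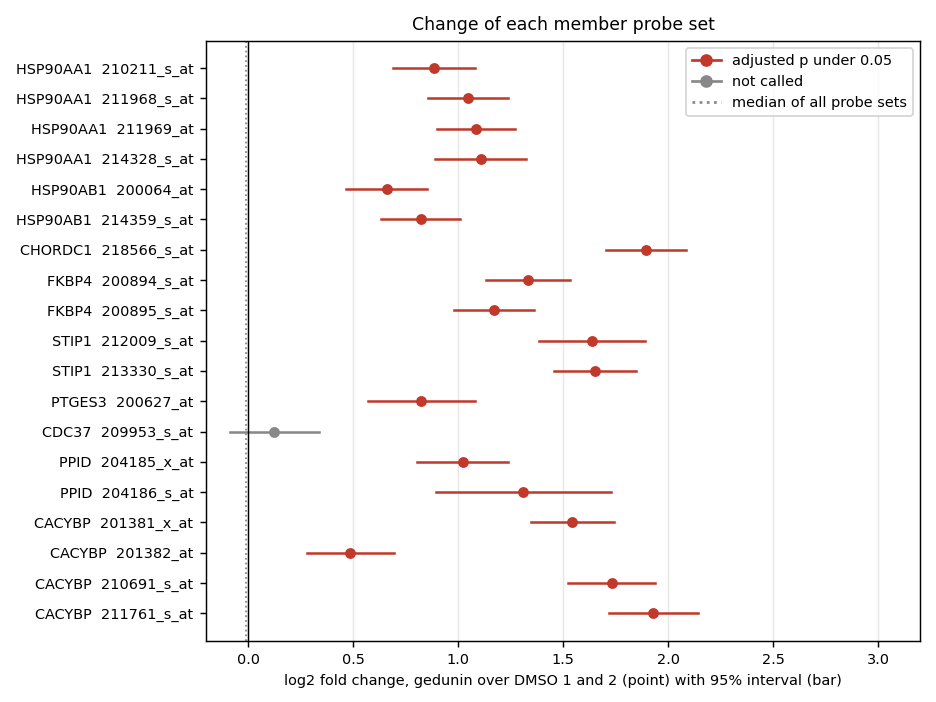
Log2 fold change of gedunin over DMSO 1 and 2 for the 19 member probe sets (points) with limma's 95% interval (bars), the dotted line marking the median of all probe sets. Points run from 0.12 for CDC37 to 1.93 for CACYBP on 211761_s_at, and 18 are past the threshold (red).

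Ordered by the representative probe set, neighbouring members overlapped in their 95% intervals, except for HSP90AB1 and CDC37. CHORDC1 (3.72-fold), STIP1 (3.14-fold) and CACYBP (2.91-fold, interval 2.54 to 3.34) stood at the top. FKBP4 (2.25-fold), HSP90AA1 (2.15-fold) and PPID (2.03-fold) followed with intervals that overlapped one another widely. PTGES3 (1.77-fold) and HSP90AB1 (1.58-fold) came next, and CDC37 (1.09-fold) was last. The percentile of each log2 fold change among 12165 genes was 99.5 for CHORDC1, 98.5 for HSP90AA1, 96.4 for HSP90AB1 and 76.6 for CDC37. Replicate spread was small for the members, with a median range over the 3 gedunin arrays of 0.11 on the log2 scale, against 0.19 over all probe sets. All 19 member probe sets lay above the array median on DMSO 1 and 2, and spread was not compared at equal intensity.

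**Figure D4:**
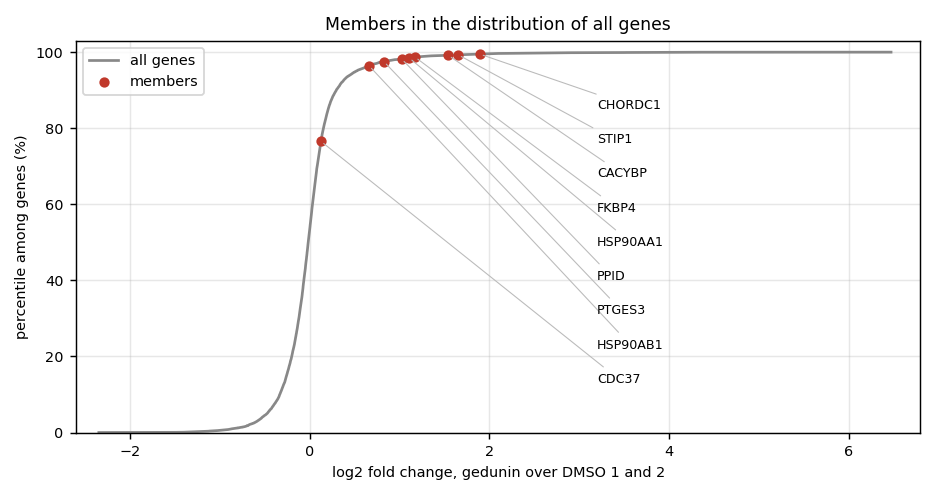
Log2 fold change of gedunin over DMSO 1 and 2 (horizontal axis) against its percentile among 12165 genes (vertical axis), with all genes as the grey curve and the 9 members as red points. The 8 members that rose lie at or above a percentile of 96.4, and CDC37 lies at 76.6.

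Some probe sets may read more than 1 transcript, since HSP90AA1 and HSP90AB1 are close paralogs with many processed pseudogenes, and the suffixes _s_at and _x_at mark probes shared among transcripts. Without probe sets of these kinds, 4 remained, 1 each for HSP90AA1 (1.09), HSP90AB1 (0.66), PTGES3 (0.83) and CACYBP (0.49, the dim one). All 4 were called as higher, and the share called among all remaining probe sets was not computed. CHORDC1, STIP1, FKBP4, PPID and CDC37 rest on _s_at and _x_at probe sets alone. A bulk measurement of this kind cannot tell fewer cells from less RNA per cell.

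On the array labelled DMSO 3, the members were present, at levels on both sides of those of DMSO 1 and 2. HSP90AA1 read 5679 there on 214328_s_at and CHORDC1 read 194. All 19 member probe sets read lower there than on every gedunin array. The share of all probe sets that did so was not computed. Of the 19, 10 lay below both DMSO 1 and 2, as did 41.1% of all probe sets. Another 8 lay above both DMSO 1 and 2, for which the share of all probe sets was not computed either. FKBP4 stood furthest below, at 369 on 200895_s_at and 250 on 200894_s_at, which is 0.410 and 0.404 times its levels on DMSO 1 and 2, and HSP90AB1 was next, with 3197 on 200064_at or 0.618 times. CACYBP lay above DMSO 1 and 2 on 201381_x_at, at 1395 or 1.39 times, on 211761_s_at (1.25 times) and on 201382_at (1.17 times). On 210691_s_at it read 319, between DMSO 1 and 2. With all 6 arrays, 12 of the 19 probe sets and 6 of the 9 genes were higher and 0 lower, against 1.13% of all probe sets and 1.31% of all genes. The genes whose call ended were FKBP4, at 1.60 ± 0.37 (limma adjusted p = 0.152), and HSP90AB1, at 0.89 ± 0.21 (limma adjusted p = 0.157). Both kept their direction with a larger estimate and a larger error.

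Most other HSP90 cochaperones were not called. Of 25 measured genes on a list of cochaperones and chaperone partners outside the members, 6 rose, 0 fell and 19 were not called. Over all genes, 8.24% rose and 9.36% fell. The median log2 fold change of the list was -0.031, against -0.017 over all genes. Centring the arrays on GAPDH and ACTB moved every log2 fold change by -0.17, and 4 of the 25 then rose and 4 fell. Of all 22215 probe sets, 1041 were then higher and 5226 lower. ACTB was itself higher with gedunin before centring (0.32 ± 0.09, limma adjusted p = 0.0347), and GAPDH was not called (0.020 ± 0.09, limma adjusted p = 0.918). BAG2, an HSP70 nucleotide exchange factor that restrains the ubiquitin ligase CHIP, read 155, 168 and 139 with gedunin against 64.8 and 53.8 with DMSO, a log2 fold change of 1.38 ± 0.11 (limma adjusted p = 3.22e-05). On the array labelled DMSO 3 it read 199.5, above the gedunin arrays, and with all 6 arrays it was not called (0.79, limma adjusted p = 0.646). NUDC, a p23-like cochaperone also needed for dynein function, read 1594, 1739 and 1497 with gedunin against 676 and 717 with DMSO. Its log2 fold change was 1.21 ± 0.10 (limma adjusted p = 2.49e-05), and 1 of its other 2 probe sets rose too (1.32), while the remaining one, below the array medians, was not called.

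DNAJC7 (TPR2), a J-domain protein that binds both HSP70 and HSP90, rose by 0.99 ± 0.11 (limma adjusted p = 2.52e-04), and its dimmer probe set was not called. The HSP70 family member HSPA8, which hands clients on, rose by 0.75 ± 0.09, TOMM34, a TPR protein of mitochondrial import, by 0.45 ± 0.09 and ST13 (HIP) by 0.33 ± 0.09 (limma adjusted p = 3.29e-04, 0.00904 and 0.0268). TPR cochaperones among the 19 genes not called included FKBP5 (-0.21 ± 0.17), the phosphatase PPP5C (-0.096 ± 0.09), the ubiquitin ligase STUB1 (CHIP; -0.20 ± 0.08), SGTA (0.075 ± 0.09) and the myosin chaperone UNC45A (-0.26 ± 0.10). RUVBL1 (-0.031 ± 0.12), RUVBL2 (-0.036 ± 0.09), RPAP3 (-0.071 ± 0.10) and PIH1D1 (-0.16 ± 0.10), which form the R2TP complex with HSP90, were not called either. CDC37L1, the CDC37-like gene, had 0.27 ± 0.09 (limma adjusted p = 0.0804). With all 6 arrays, 3 of the 25 genes of this list rose, DNAJC7, NUDC and HSPA8, against 1.31% of all genes.

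HSP70 genes and their partners, which pass clients to HSP90, rose widely, with 8 of 9 measured genes higher and 0 lower, against 8.24% of all genes higher, and a median log2 fold change of 1.70. Among them were the J-domain gene DNAJB1 (3.63 ± 0.09, and 3.92 ± 0.09 on its other probe set), the exchange factor HSPH1 (3.31 ± 0.09) and HSPA1B (2.68 ± 0.09). HSPA1A read 330.0, 366 and 279 on the gedunin arrays, against 18.2 and 27.4 on DMSO 1 and 2. Since its DMSO values lay below the array medians, the size of its log2 fold change (3.86 ± 0.17) is uncertain. Signal may be shared between HSPA1A and HSPA1B, whose sequences are almost the same. HSPBP1, an HSP70 exchange factor, was the gene not called (-0.20 ± 0.09, limma adjusted p = 0.179). HSPA8 stands on this list and on the preceding one. With all 6 arrays, 5 of the 9 were higher, against 1.31% of all genes. HSPA1A then lost its call (2.63 ± 1.05, limma adjusted p = 0.419), reading 283 on the array labelled DMSO 3, within the range of the gedunin arrays. HSPA1B (limma adjusted p = 0.205), at 47.1 on that array, and DNAJA2 (limma adjusted p = 0.0668) lost theirs as well.

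**Figure D5:**
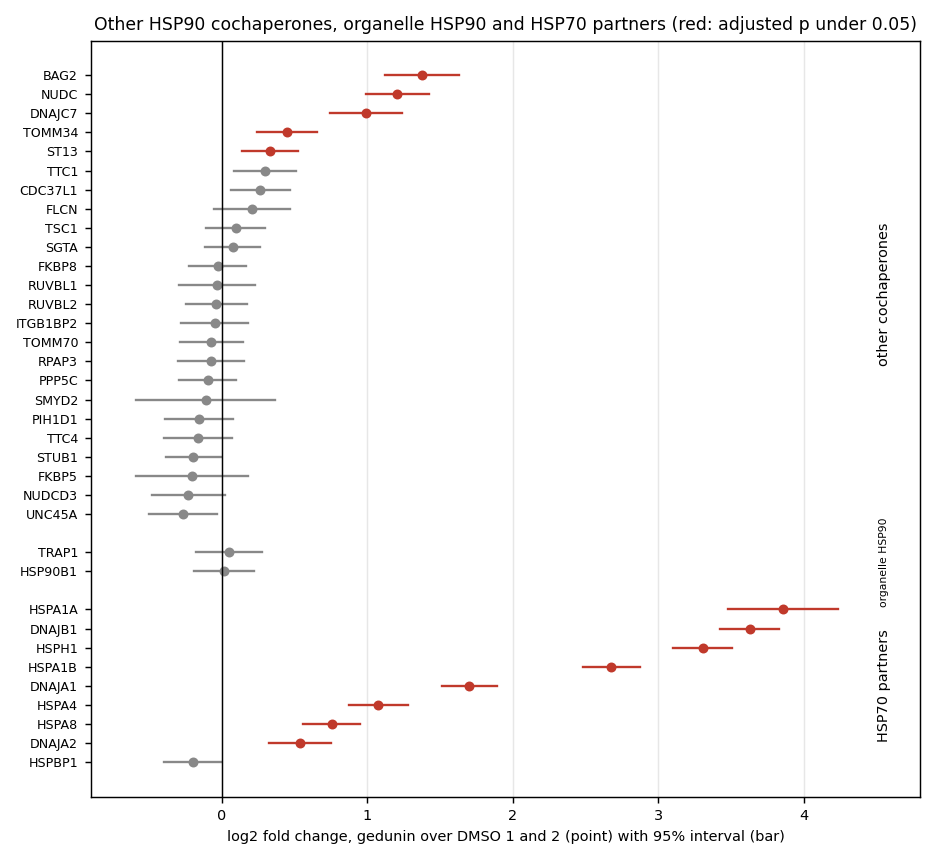
Log2 fold change of gedunin over DMSO 1 and 2 with limma's 95% interval for other HSP90 cochaperones, the organelle HSP90 genes and HSP70 partners, with red marking an adjusted p under 0.05. HSPA8 is drawn once, among the HSP70 partners. Most other cochaperones lie near 0, and 8 of 9 HSP70 partners lie above it.

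Among heat shock factors and their regulators, 0 of 6 measured genes rose and 1 fell, against 8.24% of all genes higher and 9.36% lower. HSF1, the factor that HSP90 restrains, was not called on either probe set (-0.060 ± 0.10 on the brighter, limma adjusted p = 0.773). HDAC6, which deacetylates HSP90, fell by 0.53 on the log2 scale (± 0.13, limma adjusted p = 0.0207) on its brightest probe set, while its other 2 were not called, and with all 6 arrays it lost its call (limma adjusted p = 0.652). HSF2 was not analysed here. Of 7 measured receptor clients and partners, among them NR3C1 and AHR, 0 were called by limma, 0 also at an unadjusted p under 0.05, and the median log2 fold change was 0.14. Except for ARNT, they read below the array medians, NR3C1 at 25.3 with gedunin and 22.4 with DMSO, so a change could have been missed. The androgen receptor was not analysed here.

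The partners of CACYBP in SIAH-dependent ubiquitination rose in part, with 3 of 6 measured genes higher and 0 lower, against 8.24% of all genes higher and 9.36% lower. SIAH2 rose by 0.76 ± 0.13, SIAH1 by 0.54 ± 0.11 and TBL1X by 0.46 ± 0.09 (limma adjusted p = 0.00272, 0.00678 and 0.00741). With all 6 arrays all 3 lost their calls while keeping their direction, SIAH2 at a limma adjusted p of 0.0743, SIAH1 at 0.291 and TBL1X at 0.547. SKP1 (-0.097 ± 0.09), CUL1 (0.013 ± 0.10) and S100A6 (0.22 ± 0.11), the calcyclin that gave CACYBP its name, were not called.

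The genes whose pattern was most like that of HSP90AA1 over the 5 arrays, by Euclidean distance of log2 values relative to DMSO 1 and 2, were CBLB, CTDSP2, CYLD, TACC2 and EIF5, at distances of 0.035 to 0.093. For HSP90AB1 they were SEC16A, SLC39A7, NFE2L2, SLC33A1 and BANP, at 0.051 to 0.085. None of these is a member. Over 2 treatments this measure mainly finds genes with an equal fold change.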

How the data were processed

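The deposited table holds 1 intensity per array and probe set, made by the authors with RMA (background correction, quantile normalization and probe set summary), per the submitters' processing notes. Its version and the set of arrays processed together are not given in the sources used here. Values were on a linear scale, so log2 was taken. Probe sets were named from the platform annotation supplied, with 19724 naming 1 gene, 568 several and 1923 not listed, and 0 symbols changed on matching to RefSeq. Gedunin 1 to 3 were tested against DMSO 1 and 2 with limma 3.58.1 (R 4.3.3, lmFit and eBayes), with no filter and Benjamini-Hochberg adjustment over all probe sets at 0.05. Errors are moderated standard errors. A gene took its probe set with the highest mean over these 5 arrays. Members and lists were chosen with earlier results of these data known. All members were named. Of the other lists, called cochaperones, HSP90B1, TRAP1, HSF1 and up to 4 called genes per list were named by rule, and further genes, mostly uncalled, after their values were seen. In simulated data for this comparison (22215 probe sets), 78% of log2 changes of 0.5 and 100% of changes of 1, 2 and 4 were recovered, 50 of each size, with 12 false calls. Fewer probe sets were changed there than the 3396 called in the data, and noise was drawn as normal. The rates therefore need not hold for the data. Promoter letters were searched with Python 3.11.15. Alternatives covered the arrays used, filtering, centring, quantile normalization once more, array weights, eBayes with trend and robust, a replicate block, log2 of the value plus 16, the threshold and the choice of probe sets. Pairing by replicate number was checked through deviations from group means. The planned comparison of protein ends was not made.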

Additional observations from a re-analysis of the deposited data

How the results depend on the processing

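The 8 member genes that rose kept their direction under every alternative in which they were tested. They kept their calls under all of these but those with the array labelled DMSO 3. Without _x_at and _s_at probe sets, CHORDC1, STIP1, FKBP4 and PPID were not tested. CDC37, never called, turned to -0.045 on centring on GAPDH and ACTB. Member probe sets called numbered 18, and 17 to 18 without each array in turn; member genes called stayed at 8 there. With a replicate block over all 6 arrays, limma called 0 member probe sets (18 at an unadjusted p under 0.05), 0 member genes (8), 0 other cochaperones (6) and 2 of all probe sets (2093). Without _x_at and _s_at probe sets the counts were 4 of 4 probe sets, 4 of 4 genes and 3 of 19 other cochaperones, since fewer were tested. The share called among all remaining probe sets was not computed. The paired numbers shared little. Deviations of same-numbered arrays correlated at -0.033 and 0.039, and a replicate block over 5 arrays called the same number of member genes, 8, and 2931 of all probe sets. Of all probe sets, 3396 were called (1638 higher, 1758 lower), against 312 with all 6 arrays, 1869 at an adjusted p under 0.01, and 1805 to 3064 without each array, lowest without DMSO 1 (1805) and DMSO 2 (1835), where the lone DMSO array is assumed to vary like the others. Centring on GAPDH and ACTB, which lowers every log2 fold change by an equal amount and uses a gene, ACTB, that was itself called higher (0.32), gave 6267 (1041 higher, 5226 lower). Other cochaperones called numbered 6, against 3 with all 6 arrays and 4 to 5 without each array. The excess of HSP90AA1 over HSP90AB1, 0.45, was 0.17 with all 6 arrays, 0.29 with the mean of all probe sets, and 0.34 to 0.56 without each array. Detection calls were not used here, so levels near the array median limit the folds.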
